A study of Homo sapiens with 21 samples.

Results

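IGF2BP1, IGF2BP2 and IGF2BP3 are the 3 genes of the insulin-like growth factor 2 mRNA-binding protein family. They were taken by symbol from a table of 16383 listed genes, and all 3 were among the 11579 genes expressed highly enough to be tested. The family was chosen by measured values, with results of these data in view: IGF2BP3 had one of the larger log2 rises when CDK4 knockdown was set against the non-targeting controls, and its level was known to differ between those controls. Comparisons that use the CDK4 knockdown libraries, and those between the controls, are therefore given for the 3 genes as a description with no test. The same holds for IGF2BP3 against NT3 alone and against the control mean, which contains NT3. Tests of IGF2BP3 against NT4 use control libraries that entered that choice and are not independent of it.

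The proteins carry RNA recognition motifs and KH domains and bind sites in many mRNAs, among them IGF2, ACTB and CD44, where they affect stability, localisation and translation. They are called oncofetal because IGF2BP1 and IGF2BP3 are abundant in the embryo, are largely silent in most adult tissues and return in many tumours, while IGF2BP2 is more widely expressed. They are also described as readers of N6-methyladenosine (m6A), a methyl mark on mRNA, and their own mRNAs are known targets of the let-7 microRNAs.

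The cells were IMR90, an established line of fibroblasts derived from human fetal lung, so every value comes from 1 line, labelled wild type. Poly(A) RNA was sequenced from 21 libraries in 7 groups of 3. The proliferating group had no treatment. The other 6 groups had been made senescent by ionising radiation and were transfected with DharmaFECT and 5 nM siRNA at day 4 and again at day 7, with harvest at day 10. Their siRNA was non-targeting #3 (NT3), non-targeting #4 (NT4), or directed at CCND1 (cyclin D1), at CDK4, at CDK6, or at CDK4 and CDK6 together (dual knockdown). Irradiation and transfection cannot be told apart in any comparison with proliferating cells. The series' own design text numbers the controls 1 and 2, and the names in the sample titles are used here. Nothing states that the libraries of a group came from separate cultures, so p-values measure only the spread between these libraries, which may be technical.

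The depth per library was 12892442 to 21822152 reads over listed genes, and the targeted mRNAs were left at 8.67 to 20.6% of the control mean. All 8 fibroblast markers were detected, with summed normalised read counts of 447911 to 864189 per library. The 8 markers of epithelial, endothelial and leukocyte cells summed to 22.1 to 25.3 in proliferating libraries and to at most 100.7 in irradiated ones. Of these, CDH1, SFTPC, CDH5, PTPRC and CD3E were at 0 in at least 1 library, and only EPCAM and CD14 passed the filter on low values. NT3 replicate 3 stood apart from the other libraries of its group: the chi-square per degree of freedom of its counts against them was 39.2 and 60.2, while no other pair of libraries within a group exceeded 8.07. Each IGF2BP gene had 710 to 3509 reads in every library. In these bulk libraries, fewer cells with an mRNA and less of it per cell cannot be told apart.

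The let-7 match sites are shown first because the mRNAs of the family are known let-7 targets. The microRNA is from RefSeq, and the sites were read from hg38 with the GENCODE v44 canonical transcript of each gene. Capitals mark the let-7 seed (bases 2 to 8) and, in the mRNAs, its complement CTACCTC on the transcript strand.
let-7a-5p: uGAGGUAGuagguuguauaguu
IGF2BP1, chr17:49051062-49051090, plus strand: gtgtgcgaagtaaaCTACCTCaaggtatg
IGF2BP1, chr17:49053699-49053727, plus strand: agcagtgctagtaaCTACCTCacagagcc
IGF2BP1, chr17:49054353-49054381, plus strand: tataaatggattaaCTACCTCaatcctta
IGF2BP1, chr17:49054998-49055026, plus strand: cacttttgttttatCTACCTCttagcaaa
IGF2BP2, chr3:185644213-185644241, minus strand: acacacagaagaagCTACCTCaggtgttt
IGF2BP3, chr7:23311788-23311816, minus strand: gcatttttactcaaCTACCTCaggtattc

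All 9 let-7 family members in the table had the same seed. IGF2BP1 (chr17:48997385-49056145, plus strand, 15 exons, a 577-residue protein) had 4 matches in a 3′ UTR of 6701 bases, and 3 of them extended to the 8-base form CTACCTCA. IGF2BP2 (chr3:185643130-185825042, minus strand, 16 exons, 599 residues) and IGF2BP3 (chr7:23310209-23470491, minus strand, 15 exons, 579 residues) had 1 match each, in 3′ UTRs of 2401 and 2153 bases, both of the 8-base form. Over the same length, 32.4% of the 642 3′ UTRs at least as long as that of IGF2BP1, itself included, held a match. The 0.156% that held 4 or more was IGF2BP1 alone. For IGF2BP2 and IGF2BP3 the shares were 12.6% of 4852 and 11.8% of 5482. A match is a run of letters, not a measured site, and microRNAs were not analysed here.

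The promoter of IGF2BP3, the member whose level differed most between irradiated groups, is shown from the RefSeq table (GRCh38.p14, the 250 bases before the start, minus strand), with capitals marking the E box CACGTG.
IGF2BP3, chr7:23470492-23470741: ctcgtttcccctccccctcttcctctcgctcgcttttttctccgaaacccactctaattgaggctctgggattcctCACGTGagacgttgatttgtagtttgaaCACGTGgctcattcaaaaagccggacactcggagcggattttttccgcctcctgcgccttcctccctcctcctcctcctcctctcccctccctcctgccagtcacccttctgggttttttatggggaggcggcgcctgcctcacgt
The window held 2 copies of this palindrome, which reads the same on both strands. Of 35116 RefSeq promoter windows of 250 bases, 6.34% held at least 1 copy and 0.535% at least 2. Neither E2F-type motif searched on both strands, TTTCGCGC (0.439% of windows) or TTTGGCGC (0.55%), was in the IGF2BP3 window, and the 2 windows of IGF2BP2 held none of the 3 motifs. The IGF2BP1 promoter was not analysed here.

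**Figure D1:**
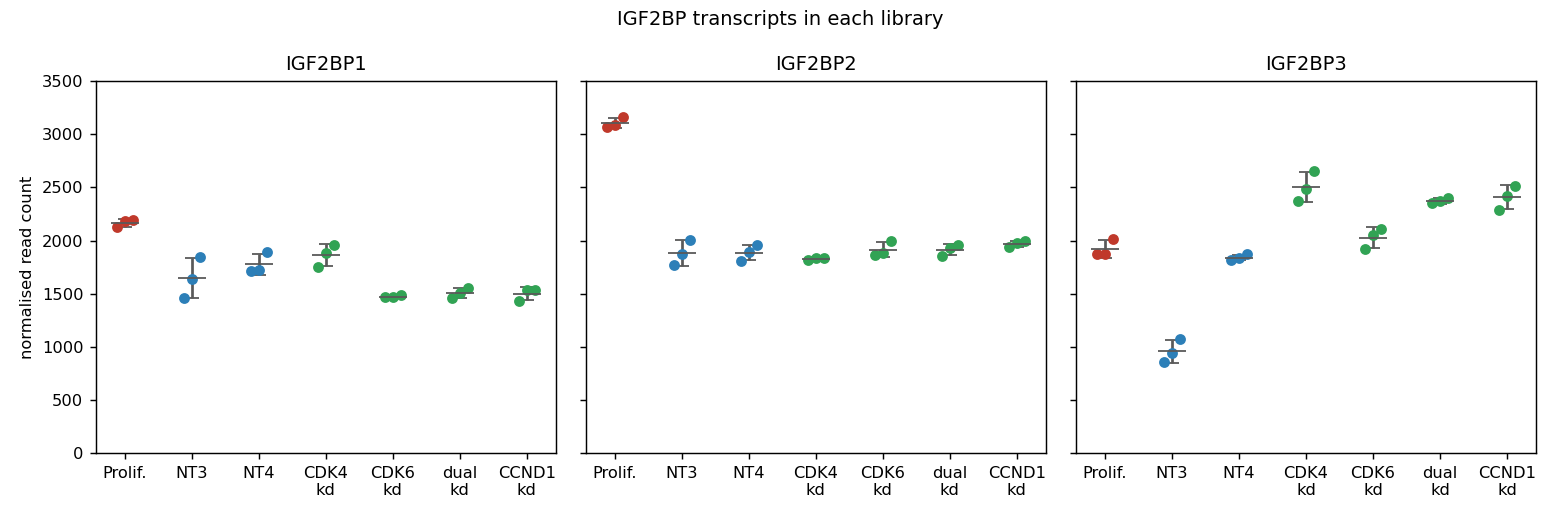
Normalised read count of each IGF2BP gene (vertical axis) in the 7 groups; points are libraries, horizontal lines are means and bars are SD (n = 3). IGF2BP1 and IGF2BP2 were highest in proliferating cells, and IGF2BP3 ranged from 862 to 1077 in NT3 and from 1816 to 2651 in all other groups.

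IGF2BP2 (Ensembl ENSG00000073792), the member found most widely in adult tissues, separated proliferating from irradiated cells and hardly varied among the irradiated groups. Its normalised read counts were 3065, 3160.5 and 3091 in proliferating cells, 1876, 2008 and 1768 in NT3, and 1955, 1891 and 1813 in NT4. The 3 proliferating libraries lay above every irradiated library. Against proliferating cells the mean of the 2 controls fell by 0.72 on the log2 scale (SE 0.05, n = 6 and 3, limma adjusted p = 5.31e-12), with the same -0.72 for NT3 and for NT4. In this comparison 68.6% of tested genes passed the threshold and 36.1% fell, so a fall by itself was common. Without NT3 replicate 3 the IGF2BP2 difference was -0.70 (limma adjusted p = 1.28e-14). Summed fibroblast markers were also lower in these controls, 447911 to 559900 against 603275 to 619417 in proliferating cells, and sums of other-cell markers were higher, 58.9 to 100.7 against 22.1 to 25.3. Their part in the differences of the 3 genes from proliferating cells was not tested.

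Among irradiated groups the order of IGF2BP2 means was CDK4 knockdown, NT3, NT4, dual knockdown, CDK6 knockdown and CCND1 knockdown, from 1829.8 ± 11.9 to 1972 ± 28.7 (SD, n = 3), and each group overlapped its neighbour in that order. Against the control mean, CCND1 knockdown differed by 0.07 (95% interval -0.03 to 0.16, limma adjusted p = 0.285). CDK6 knockdown differed by 0.02 (-0.07 to 0.12, 0.707) and dual knockdown by 0.02 (-0.07 to 0.12, 0.708), where the last value in each bracket is again the limma adjusted p. The intervals bound any change of IGF2BP2 in these 3 knockdowns to within 0.16 on the log2 scale. Relative to proliferating cells IGF2BP2 was lower in all of them, by -0.66 in CCND1 knockdown (limma adjusted p = 4.01e-10), -0.70 in CDK6 knockdown (1.29e-10) and -0.70 in dual knockdown (1.16e-10).

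IGF2BP1 (ENSG00000159217), an embryonic member that stabilises many mRNAs, was also highest in proliferating cells, with 2125, 2180.4 and 2189.6. Its values were 1637, 1842 and 1461 in NT3 and 1725, 1718 and 1892 in NT4, with no overlap with proliferating cells. The control mean fell by 0.34 (SE 0.06, limma adjusted p = 2.74e-05), made up of -0.40 for NT3 (2.55e-05) and -0.29 for NT4 (0.00106). Without NT3 replicate 3 it was -0.30 (limma adjusted p = 3.36e-06). NT3 had the widest spread of any group for IGF2BP1 (SD 190.5), and its replicate 3 was the lowest of the 3 for each of the 3 genes.

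Within the irradiated groups IGF2BP1 was lower in CCND1, CDK6 and dual knockdown than in the controls. It measured 1531, 1437 and 1539.9 in CCND1 knockdown, 1466, 1468 and 1487 in CDK6 knockdown, and 1505, 1558 and 1458 in dual knockdown. The CDK6 libraries were closest together, all 3 groups lay below every NT4 library, and all overlapped NT3. Against the control mean the difference was -0.18 for CCND1 knockdown (SE 0.06, limma adjusted p = 0.0225), where 31% of tested genes passed the threshold and 14.4% fell. It was -0.21 for CDK6 knockdown (SE 0.06, 0.00671), where 41.9% passed and 20.8% fell, and -0.18 for dual knockdown (SE 0.06, 0.018), where 44% passed and 21.5% fell. Changes of this size were common: 48.2%, 50.1% and 57.3% of tested genes differed by more in these comparisons.

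The IGF2BP1 calls depended on the control. Against NT3 alone the differences were -0.13, -0.15 and -0.12 for CCND1, CDK6 and dual knockdown (limma adjusted p = 0.153, 0.0717 and 0.157), where 38.2%, 46.3% and 44.6% of tested genes passed. Against NT4 alone they were -0.24, -0.27 and -0.24 (0.0157, 0.00462 and 0.0095). Against NT4, 19.3%, 30.6% and 36.7% of tested genes passed, and 8.85%, 15.4% and 18.3% fell. Without NT3 replicate 3, which stood apart, the differences from the control mean were -0.23, -0.25 and -0.22 (limma adjusted p = 0.000557, 9.6e-05 and 0.000387). The CCND1 call was lost without NT4 replicate 3 (-0.16, limma adjusted p = 0.0527) or CCND1 knockdown replicate 2 (-0.15, 0.124). The dual call was lost without dual knockdown replicate 1 (-0.18, limma adjusted p = 0.0522) or replicate 3 (-0.16, 0.0871). All 3 were lost when the variance was estimated from the compared groups alone (limma adjusted p = 0.119, 0.0546 and 0.101). CDK4 knockdown, given as a description, had 1879, 1963 and 1752, which was 0.13 above the control mean and -0.22 from proliferating cells.

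IGF2BP3 (ENSG00000136231), known in pathology as the tumour marker IMP3, had a different pattern from the other members. Its normalised read counts were 1876, 2017 and 1872 in proliferating cells, 945, 1077 and 862 in NT3, and 1816, 1835 and 1871 in NT4. The 2 controls did not overlap, with or without NT3 replicate 3: NT3 averaged 961 ± 108.6 and NT4 1841 ± 27.6 (SD, n = 3), a log2 difference of 0.94 for which no test is given, and 3.39% of tested genes differed by more. The NT4 libraries lay just below the lowest proliferating library.

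Because of that gap, the effect of senescence on IGF2BP3 depended on which control stood for it. NT3 differed from proliferating cells by -1.004, given with no test, in a comparison where 67% of tested genes passed and 35.2% fell. NT4 differed by -0.06 (-0.20 to 0.08, limma adjusted p = 0.447), where 63.3% passed and 33.2% fell. This test uses NT4 libraries that entered the choice of IGF2BP3 and is not independent of it. Median centring moved the NT4 value to 0.05 and quantile normalisation to 0.01, so its direction changed with the scaling. The mean of both gave -0.53, or -0.49 without NT3 replicate 3. It is given with no test and describes neither control. NT3 libraries also had the lowest summed fibroblast markers, 447911 to 507747 against 533165 to 559900 in NT4, and sums of other-cell markers of 58.9 to 100.7 against 61.6 to 67.1. The part of these in the IGF2BP3 value was not tested.

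In the knockdowns IGF2BP3 rose above the control mean. It measured 2512, 2422 and 2292 in CCND1 knockdown, 2111, 1919 and 2053 in CDK6 knockdown, and 2351, 2404 and 2369 in dual knockdown. Every one of these 9 libraries was above all 6 control libraries. Over the control mean IGF2BP3 was higher by 0.86 in CCND1 knockdown, 0.61 in CDK6 knockdown and 0.84 in dual knockdown, given with no test. Without NT3 replicate 3 the values were 0.82, 0.57 and 0.80. In those comparisons 16.7%, 21.1% and 22.5% of tested genes rose, and 3.51%, 12.6% and 8.89% differed by more in either direction. Summed fibroblast markers were 679567 to 864189 in dual knockdown and 519447 to 592594 in the other 3 knockdowns, and their part in these values was not tested. The control libraries are shared by these comparisons and by the CDK4 comparison that brought IGF2BP3 in.

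**Figure D2:**
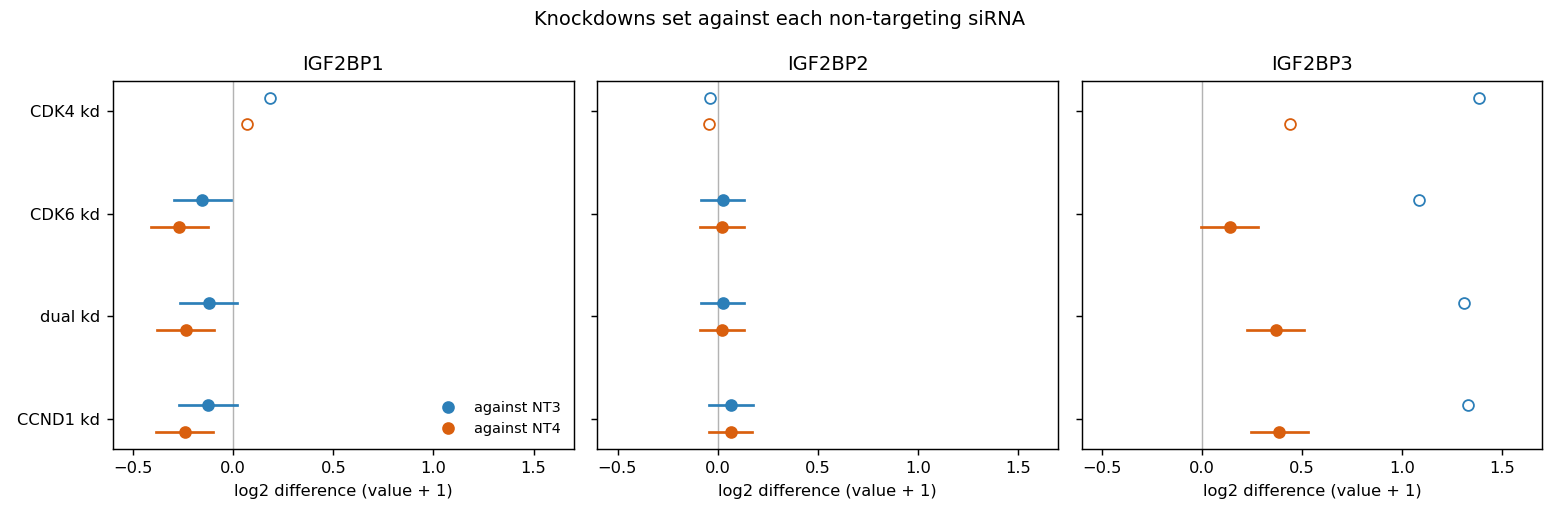
Log2 difference of each knockdown from NT3 (blue) and from NT4 (orange), in log2(normalised read count + 1); bars are 95% intervals from limma, and open circles are values described with no interval (CDK4 knockdown, and IGF2BP3 against NT3). The IGF2BP3 intervals against NT4 are not independent of the choice of the gene. For IGF2BP3 each knockdown lay 0.94 farther from NT3 than from NT4, for IGF2BP1 each lay 0.12 lower against NT4 than against NT3, and for IGF2BP2 the 2 controls gave nearly the same value.

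Set against each control alone, the size of the IGF2BP3 rise moved by the 0.94 that separates the controls. Against NT3 the log2 difference was 1.33 for CCND1 knockdown, 1.08 for CDK6 knockdown and 1.31 for dual knockdown, given with no test, where 19.9%, 23% and 22.7% of tested genes rose. Against NT4 it was 0.39 for CCND1 knockdown (0.25 to 0.53, limma adjusted p = 0.000307) and 0.37 for dual knockdown (0.23 to 0.51, 0.000215). CDK6 knockdown was 0.14 above NT4 (-0.0028 to 0.28, limma adjusted p = 0.134), with all 3 libraries above the NT4 libraries, and did not pass the threshold. Against NT4, 10.4%, 15.2% and 18.4% of tested genes rose in CCND1, CDK6 and dual knockdown. The tests against NT4 use control libraries that entered the choice of IGF2BP3, so they are not independent of it.

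The comparisons that use neither control nor CDK4 knockdown libraries placed CDK6 knockdown below the other knockdowns for IGF2BP3. Dual knockdown was 0.23 above CDK6 knockdown (95% interval 0.09 to 0.37, limma adjusted p = 0.0283), where 13% of tested genes passed and 6.05% rose. CCND1 knockdown was 0.25 above CDK6 knockdown (0.11 to 0.39, limma adjusted p = 0.0184), where 12.2% passed and 6.78% rose. In both, all 3 libraries were higher than the CDK6 libraries.

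These calls were near the threshold. The dual call was lost without CDK6 knockdown replicate 2 (0.19, limma adjusted p = 0.125) or 3 (0.24, 0.0665), and without dual knockdown replicate 1 (0.24, 0.0635), 2 (0.22, 0.0761) or 3 (0.23, 0.0724). It was also lost under quantile normalisation (0.18, limma adjusted p = 0.0895) and with sets of library numbers as a block (0.23, 0.056). The CCND1 call was lost without CCND1 knockdown replicate 1 (0.22, limma adjusted p = 0.0903) or 2 (0.24, 0.0585), or CDK6 knockdown replicate 2 (0.21, 0.0931). CCND1 and dual knockdown differed by 0.02 (95% interval -0.12 to 0.16, limma adjusted p = 0.882), where 20.3% of tested genes passed. IGF2BP1 and IGF2BP2 did not pass the threshold in any of these 3 comparisons, with differences of -0.00 to 0.04.

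Against proliferating cells the members parted in direction. IGF2BP3 was higher in CCND1 knockdown (0.33, limma adjusted p = 0.000265) and in dual knockdown (0.31, 0.000463), and overlapped proliferating cells in CDK6 knockdown (0.08, limma adjusted p = 0.325). IGF2BP1 was lower in the same 3 groups by -0.53, -0.55 and -0.52 (limma adjusted p = 7.7e-07, 3.48e-07 and 7.84e-07). In these comparisons 63.8%, 66.1% and 65.6% of tested genes passed, 31.3%, 32.6% and 32.7% rose, and 32.5%, 33.5% and 32.9% fell. Centring each library on its median raised every difference from proliferating cells by 0.11 to 0.13, which brought IGF2BP3 in CDK6 knockdown past the threshold (0.20, limma adjusted p = 0.0124).

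CDK4 knockdown had the highest IGF2BP3 mean of the 7 groups, with 2485, 2651 and 2371. This was 0.91 above the control mean, 1.38 above NT3, 0.44 above NT4 and 0.38 above proliferating cells, and 1.09% of tested genes differed more from the control mean. CDK6 knockdown was -0.30 from CDK4 knockdown with no overlap, while dual and CCND1 knockdown overlapped it at -0.07 and -0.05. In order of mean, IGF2BP3 ran from NT3 through NT4, proliferating cells, CDK6 knockdown, dual knockdown and CCND1 knockdown to CDK4 knockdown. Proliferating cells overlapped CDK6 knockdown, and dual, CCND1 and CDK4 knockdown overlapped each other. The dual knockdown lay -0.68 from the sum of the single CDK4 and CDK6 differences taken from the control mean, -1.16 taken from NT3 and -0.21 taken from NT4, values given with no test.

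**Figure D3:**
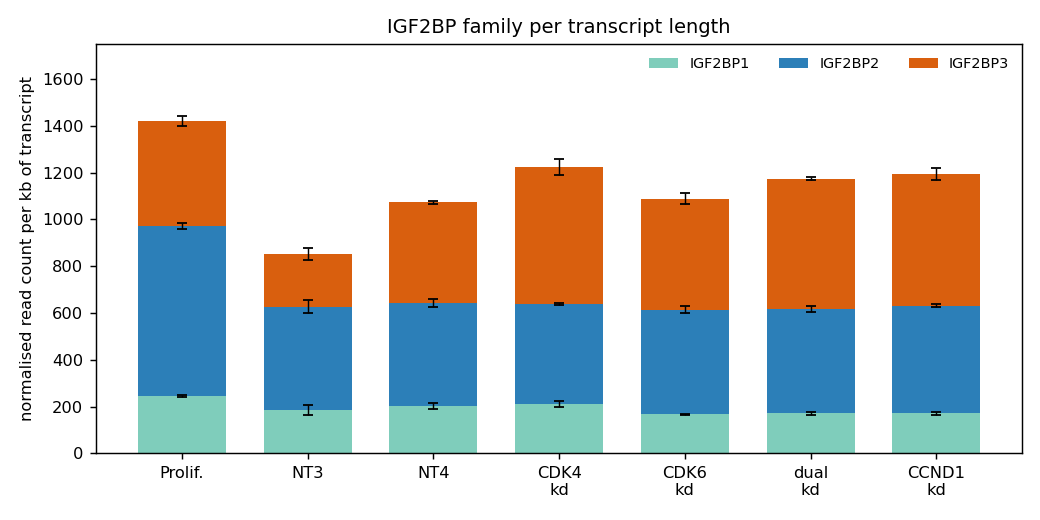
Normalised read count per kb of transcript, stacked for the 3 genes in the 7 groups; bar segments are means and error bars the SD of each gene (n = 3). The family total was 1421 in proliferating cells, 852 in NT3 and 1073 to 1225 in the other irradiated groups.

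Per kb of canonical transcript, a scale on which the genes can be set side by side, IGF2BP1 had the lowest mean of the 3 members in every group. IGF2BP1 means ran from 167.5 to 246.1, IGF2BP2 from 427 to 725 and IGF2BP3 from 225 to 586 per kb. IGF2BP2 was the most abundant member in proliferating cells, with 51.0% of the family total against 31.6% for IGF2BP3. In NT3 the shares were 51.7% and 26.4%, and in NT4 41.0% and 40.1%. IGF2BP3 was the most abundant member in all 4 knockdowns, with 43.5% in CDK6 knockdown and 47.2 to 47.8% in the others. These shares are descriptions, and the canonical transcript length may not be the length the cells use.

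The overlap of IGF2BP3 with a neighbour limits its values. MALSU1, a protein-coding gene on the opposite strand that encodes a mitochondrial ribosome assembly factor, shares 1521 of the 8535 annotated exon bases of IGF2BP3 (17.8%), at chr7:23310209-23311729. The 8535 bases join the exons of all annotated transcripts. The shared stretch lies in the 3′ UTR (2153 bases) of the canonical transcript (4274 bases), the one used for the per-kb scale. Its share of that transcript is therefore larger than 17.8%. Whether reads were counted by strand is not given in the sources used here. MALSU1 group means ran from 303 in CDK4 knockdown to 415 in dual knockdown, with 337 in NT3 and 314 in NT4. IGF2BP1 exons overlap 2 opposite-strand long non-coding RNAs, and IGF2BP2 shares no exon with an overlapping gene.

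**Figure D4:**
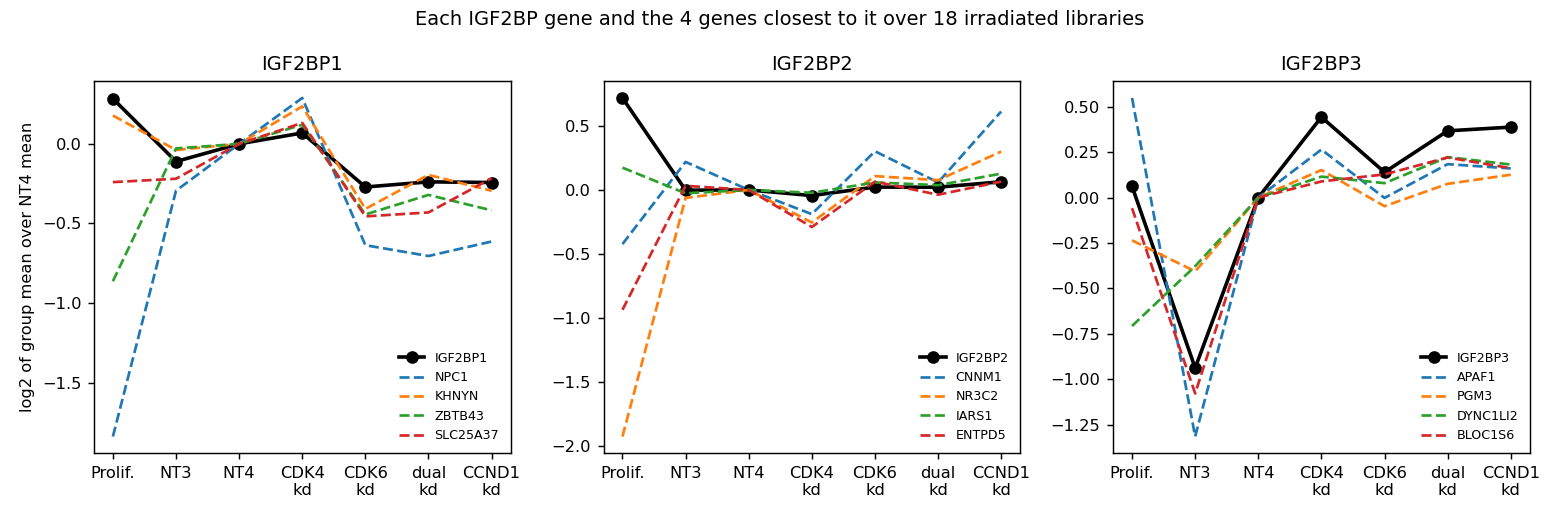
Log2 of the group mean over the NT4 mean for each IGF2BP gene (black) and its 4 most similar genes over the 18 irradiated libraries (dashed), with a different vertical scale in each panel. The genes near IGF2BP3 lie below their NT4 level in NT3, as it does, and the NT3 libraries helped to choose them. Most of the genes near each member part from it in proliferating cells, which were not used for this likeness.

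The genes whose pattern was most like each member were taken by Pearson's r of log2 values. These are descriptions over libraries that share groups and depth. Over all 21 libraries IGF2BP2 was nearest to FADS2 (r = 0.978), a fatty acid desaturase, then NID1 (0.972), HBE1 (0.970) and HNRNPU (0.969). IGF2BP1 was nearest to GABPB1 (0.928), B3GNT5 (0.925), ZNF507 (0.924) and PDE4D (0.918), and IGF2BP3 to BLOC1S6 (0.953), MTO1 (0.946), VPS4B (0.940) and PICALM (0.928). The members were less like each other: r was 0.68 between IGF2BP1 and IGF2BP2, -0.01 between IGF2BP1 and IGF2BP3, and 0.03 between IGF2BP2 and IGF2BP3.

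Over the 18 irradiated libraries the nearest genes to IGF2BP3 were APAF1 (r = 0.972), which forms the apoptosome, PGM3 (0.969), DYNC1LI2 (0.962) and BLOC1S6 (0.954). APAF1 averaged 329 in NT3 and 818 in NT4, and BLOC1S6 774 and 1633, so both had the low NT3 level seen for IGF2BP3. The NT3 libraries were among those used to choose these genes, so a shared low NT3 level follows in part from that choice. IGF2BP1 was nearest to NPC1 (0.962), a lysosomal cholesterol transporter, then KHNYN (0.936), ZBTB43 (0.908) and SLC25A37 (0.908). NPC1 averaged 3008 in CDK4 knockdown, 2009 in NT3 and 1512 in dual knockdown. IGF2BP2, which varied little in these libraries, had no gene closer than CNNM1 (0.811), followed by NR3C2 (0.805), IARS1 (0.776) and ENTPD5 (0.775).

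**Figure D5:**
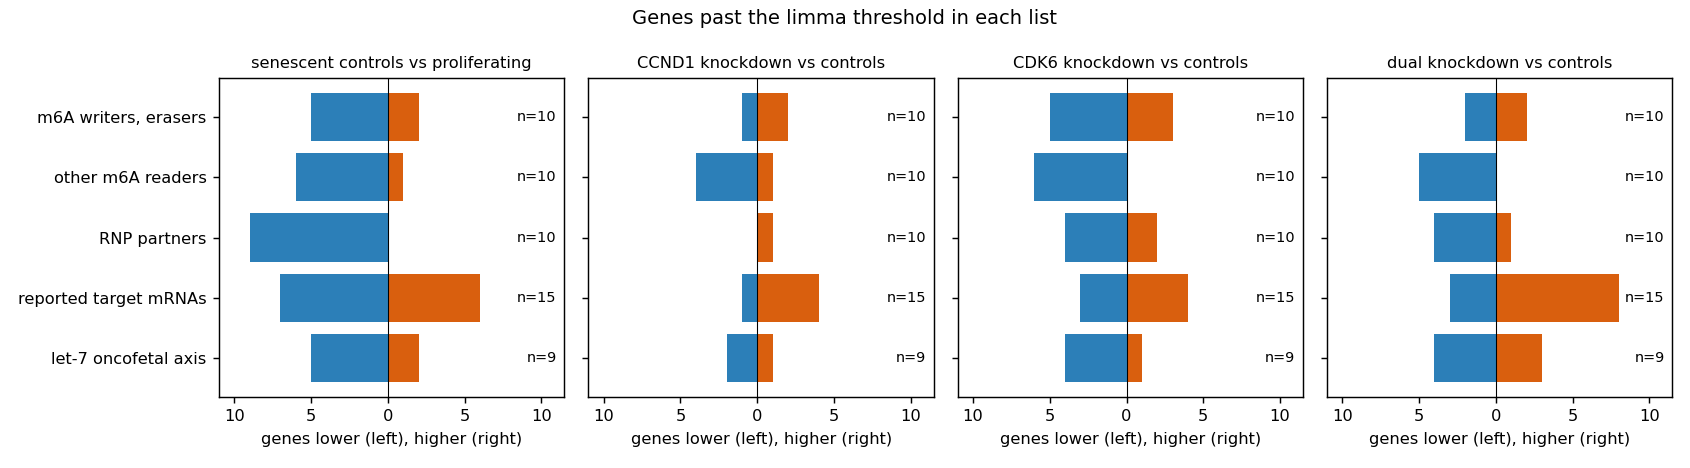
Number of genes of 5 lists past the limma threshold in 4 comparisons, lower to the left and higher to the right; n is the number tested. The partners of IGF2BP ribonucleoproteins had 9 of 10 genes lower in senescent controls, and the reported target mRNAs had 8 of 15 higher in dual knockdown.

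Other genes of the pathway are described by lists, chosen with earlier results of these data known. Their differences use the mean of NT3 and NT4, and tests against each control alone are not given. Of 10 tested partners of IGF2BP ribonucleoproteins, 9 fell and 0 rose in senescent controls against proliferating cells (median -0.63, against -0.03 over all tested genes, of which 36.1% fell and 32.6% rose). The counts were also 9 and 0 by edgeR, by DESeq2 and by limma at an unadjusted p under 0.05. The log2 difference was -1.14 for HNRNPM, a splicing factor (limma adjusted p = 1.15e-13), -0.999 for HNRNPU, a nuclear scaffold protein (5.49e-15), and -0.98 for KHDRBS1, also called SAM68 (8.31e-15). In CCND1 knockdown 1 of the 10 rose (PABPC1, the poly(A)-binding protein, 0.21) and 0 fell by limma, against 2 by DESeq2, 0 by edgeR and 2 by limma at an unadjusted p under 0.05. Over all tested genes 16.7% rose and 14.4% fell there. In CDK6 knockdown 2 rose and 4 fell (all genes 21.1% and 20.8%), and in dual knockdown 1 rose and 4 fell (22.5% and 21.5%), with HNRNPM at -0.34 and -0.26.

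Of the 10 other m6A readers tested, 6 fell and 1 rose in senescent controls (median -0.41; 36.1% and 32.6% of all tested genes fell and rose), led by RBMX at -1.53 (limma adjusted p = 3.9e-17) and HNRNPA2B1 at -1.10 (6.46e-13), both nuclear proteins. In the knockdowns 4, 6 and 5 fell and 1, 0 and 0 rose in CCND1, CDK6 and dual knockdown (medians -0.15, -0.18 and -0.24, against -0.01, -0.01 and 0.00 over all genes). Over all tested genes 14.4%, 20.8% and 21.5% fell and 16.7%, 21.1% and 22.5% rose. The counts of 0 that rose were also 0 by edgeR and by DESeq2, and at an unadjusted limma p under 0.05 they were 1 for CDK6 and 0 for dual knockdown. FMR1, a translational repressor, was lower in all 3 (-0.21, -0.30 and -0.41; limma adjusted p = 0.0198, 0.000763 and 2.77e-05). YTHDF3 was not analysed here.

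Of the 10 genes that write or erase m6A, 2 rose and 5 fell in senescent controls (median -0.17), against 32.6% and 36.1% of all tested genes, with RBM15B at -0.55 and METTL14 at -0.51. RBM15, which guides the methyltransferase complex, was lower in CCND1, CDK6 and dual knockdown (-0.36, -0.46 and -0.63; limma adjusted p = 0.00921, 0.000831 and 2.52e-05). WTAP, another member of that complex, was lower in CDK6 and dual knockdown (-0.51 and -0.40; limma adjusted p = 2.42e-05 and 0.000303). It averaged 2016 in NT3 and 1608 in NT4, and dual knockdown libraries (1275 to 1504) overlapped those of NT4 (1462 to 1762). In CCND1, CDK6 and dual knockdown 2, 3 and 2 genes of the list rose (all tested genes 16.7%, 21.1% and 22.5%) and 1, 5 and 2 fell (14.4%, 20.8% and 21.5%).

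Of 15 tested mRNAs reported as IGF2BP targets, 6 rose and 7 fell in senescent controls (median -0.02), against 32.6% and 36.1% of all tested genes. CD44, a hyaluronan receptor, rose by 1.22 (limma adjusted p = 5.8e-15) and BTRC, a ubiquitin ligase subunit, by 1.10 (1.21e-12), while E2F1, a driver of S phase genes, fell by 1.71 (1.22e-12). In dual knockdown 8 rose and 3 fell (median 0.23; all tested genes 22.5% and 21.5%), with ACTB, cytoplasmic actin, at 0.56 (limma adjusted p = 6.66e-07), NRAS at 0.56 (8.35e-09) and E2F1 at -1.30 (7.33e-10). In CCND1 knockdown 4 rose and 1 fell (all genes 16.7% and 14.4%), and in CDK6 knockdown 4 rose and 3 fell (21.1% and 20.8%). ACTB was higher in both (0.38 and 0.51) and E2F1 lower (-0.64 and -0.96).

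The let-7 and fetal growth list had 9 tested genes, of which 2 rose and 5 fell in senescent controls (median -0.40; all tested genes 32.6% and 36.1%). IGF2, the growth factor whose mRNA gave the family its name, fell by 0.64 (limma adjusted p = 0.0128), and HMGA2, a fetal chromatin protein and let-7 target, rose by 0.77 (5.2e-11). The size of the IGF2 fall depended on the control: IGF2 averaged 286 in proliferating cells, 158 ± 75.5 in NT3 and 232 ± 21.8 in NT4 (SD). In CDK6 knockdown HMGA2 fell by 0.92 (limma adjusted p = 4.71e-11). There IGF2BP3 was 0.61 above the control mean, given with no test, and 0.14 above NT4 alone (limma adjusted p = 0.134). ARID3B, a let-7 target, was lower in CCND1, CDK6 and dual knockdown (-0.49, -0.60 and -1.06; limma adjusted p = 0.0276, 0.00594 and 2.39e-05). In those comparisons 1, 1 and 3 genes of the list rose (all tested genes 16.7%, 21.1% and 22.5%) and 2, 4 and 4 fell (14.4%, 20.8% and 21.5%), with medians of 0.05, -0.22 and -0.24. LIN28A and TRIM71 were below the filter on low values, and LIN28B was not analysed here.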

How the data were processed

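The authors deposited 1 table of expression signal, headed as normalised counts per the file headers. Each value is a read count divided by a size factor of its library: 100% of values returned whole reads (within 0.01). The submitters' processing notes name Trimmomatic 0.38.1, HISAT2 2.2.1, featureCounts 2.0.3, FastQC 0.74, MultiQC, DESeq2 2.11.40.8 and hg38/GRCh38; their order, settings, annotation and strand setting are not given in the sources used here. Genes were kept when 3 or more libraries reached a value of 10. The log2(value + 1) of 11579 genes was modelled by limma 3.58.1 (R 4.3.3) using 7 group means and a trended empirical Bayes variance. The fit was also run on simulated counts. Those had no outlying library and no difference between the controls, so that run does not bear on these features here. Tests were two-sided with Benjamini-Hochberg adjustment over all tested genes within each comparison and a threshold of 0.05. Fold changes are on this log2 scale. The columns name a group without a replicate, and the replicate numbers printed follow column order as names only.

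The members and lists were chosen with earlier results of these data known. Named genes were the 3 members, the 4 most correlated genes for each over 21 and over 18 libraries, and up to 3 genes per list and comparison with the largest differences past the threshold. Alternatives were other pseudocounts (0.1, 10), filters, median centring, quantile normalisation, a fit of the compared groups alone, each control alone, each library left out, and edgeR 4.0.16 and DESeq2 1.42.0 on the recovered reads. Libraries of a group differed by more than counting noise (chi-square per degree of freedom 2.98 to 60.2), with NT3 replicate 3 in both pairs above 8.07. Each library was counted as its own sample, though this spread may be technical and does not show separate cultures.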

Additional observations from a re-analysis of the deposited data

Results flagged for a closer look

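IGF2BP3 differed between knockdown groups by a test of the difference itself. Dual knockdown exceeded CDK6 knockdown by 0.23 on the log2 scale (limma adjusted p = 0.0283). CCND1 knockdown exceeded it by 0.25 (limma adjusted p = 0.0184), with 3 of 3 libraries higher in each. The 2 non-targeting siRNAs differed by 0.94 for this gene, and the part of the siRNAs themselves in these differences was not tested. Both calls were near the threshold: of 16 alternatives, 9 kept the first and 13 kept the second. The first was lost with library-number sets as a block (limma adjusted p = 0.056) and under quantile normalisation. It was also lost when any single dual knockdown library, or CDK6 knockdown replicate 2 or 3, was left out. The second was lost when some single libraries were left out. For IGF2BP1, every CDK4 knockdown library lay above the control mean, while every library of CCND1, CDK6 and dual knockdown lay below it, a separation of 0.31, 0.34 and 0.31. Each of these groups overlapped the control libraries (1461 to 1892). For IGF2BP2, every CCND1 knockdown library lay above the control mean and every CDK4 knockdown library below it, a separation of 0.11. All of these libraries lay inside the control range of 1768 to 2008. These 4 separations were not tested.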

How the results depend on the processing

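Of 528 values of the 30 member results under alternatives, 492 kept their direction and side of the threshold, and 15 results did so throughout. These include the IGF2BP3 differences from the control mean, which are given above with no test. Their part in these counts is no support for them. Quantile normalisation gave opposite signs, none past the threshold, for IGF2BP2 in CDK6 knockdown (-0.0060) and dual knockdown (-0.046) against the controls, and for IGF2BP1 in dual against CDK6 (-0.0095), CCND1 against CDK6 (-0.0019) and CCND1 against dual knockdown (0.0076; DESeq2 0.0016). It took the IGF2BP3 difference of dual from CDK6 knockdown below the threshold (0.18). Median centring gave 0.0059 for IGF2BP2 in dual against CDK6 knockdown and brought IGF2BP3 in CDK6 knockdown against proliferating cells past the threshold (0.20). A fit of the compared groups alone lost the IGF2BP1 calls of CCND1 (-0.18), CDK6 (-0.21) and dual knockdown (-0.18), as did NT3 alone as control (-0.13, -0.15 and -0.12). With NT4 alone, the IGF2BP3 difference was -0.061 in senescent controls and 0.14 in CDK6 knockdown, neither past the threshold. Those tests are not independent of the choice of the gene. The cause was not tested in any of these.

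Leaving out 1 library at a time gave -0.23 to -0.14 for IGF2BP1 in CCND1 knockdown and -0.22 to -0.14 in dual knockdown against the controls, and 0.19 to 0.26 and 0.21 to 0.28 for IGF2BP3 in dual and CCND1 against CDK6 knockdown; the lost calls stand beside those results. Signs changed, with no call, for CCND1 against dual knockdown in IGF2BP3 (-0.011 to 0.055) and IGF2BP1 (-0.028 to 0.028), and for IGF2BP2 in CDK6 knockdown against the controls (-0.0066 to 0.047) and in dual against CDK6 knockdown (-0.019 to 0.030). Counts of genes past the threshold moved by over 1.5 times in 6 of 176 cases. In CCND1 knockdown against the controls, 3594 became 2269 with the compared groups alone and 2235 with NT4 alone. In dual and CCND1 against CDK6 knockdown, 1504 and 1414 became 2434 and 2416 with the compared groups alone, and 937 and 927 without CDK6 knockdown replicate 3.

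No paired analysis was possible because the columns carry no replicate number from the labels, so no fit could use those numbers. A block of another kind, chosen after seeing the data, took sets of library numbers in the column names, and the IGF2BP3 difference of dual from CDK6 knockdown then missed the threshold (0.23, limma adjusted p = 0.056). Deviations of same-set libraries had a median correlation of 0.04. Each of the 3 genes had at least 710 reads in every library, and with 3 libraries per group the variance rests on the pooling over 7 groups.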
